A study of Mus musculus with 9 samples.

Results

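Proteins extracted from the surface of a dairy bacterium, Propionibacterium freudenreichii MJ2, are set here against whole cells of the same strain after heat killing. The 3 RNA sequencing libraries of surface protein-treated RAW 264.7 cells were compared directly with the 3 libraries of cells given heat-killed MJ2, out of 9 libraries in the series. RAW 264.7 is a mouse macrophage line that turns into multinucleated, bone-resorbing osteoclasts when it is given RANKL, and the labels describe it as BALB/c macrophages at passage 30. Surface proteins were given at 10 µg/mL and heat-killed cells at 10000000 cells/mL, in both cases for 4 days. By the study's methods the cells with surface proteins also received RANKL, at 50 ng/mL by the labels, whereas neither source says so of the libraries with heat-killed MJ2, so presence of RANKL is not established for that group. The remaining 3 libraries, of cells with 50 ng/mL RANKL alone, serve as levels only, and no test against them is given. The doses of the preparations are in different units, the protein content of the heat-killed cells at their dose is not stated, and the surface proteins had been extracted with guanidine hydrochloride and dialyzed, so dose and preparation cannot be told apart. The labels do not say whether the 3 libraries of a group came from separate cultures, and the p-values therefore measure the spread between these libraries, which may be technical.

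Of 23282 gene rows, 10916 were compared, namely those that reached 10 adjusted reads in 3 or more of the 6 libraries. An adjusted read is 2 to the power of the deposited log2 value, minus 1, and the deposited scale is therefore log2(adjusted reads + 1). Of these rows 9814 were over the minimum in all 6 libraries, 77 were over it in the 3 surface protein libraries and in no other, 54 in the 3 heat-killed MJ2 libraries and in no other, and 971 in another combination. The other 12366 rows were not tested, and 7779 of them were at 0 in all 6 libraries. The libraries were made from the 3′ end of mRNA, so a value does not grow with the length of the transcript.

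Macrophages sense bacterial lipoproteins, cell wall fragments and nucleic acids through Toll-like and NOD-like receptors, which turn on NF-kB, AP-1 and interferon-regulated genes for cytokines, chemokines and surface receptors. In a precursor cell exposed to RANKL the same machinery competes with a separate programme, in which the transcription factor NFATc1 drives the genes for fusion and bone resorption while repressors such as IRF8 and BCL6 hold them down. A further pathway, the integrated stress response, halts most translation and lets the transcription factor ATF4 switch on genes for amino acid supply, chaperones and cell death when proteins misfold or nutrients run short.

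The totals of adjusted reads lay between 6329523 and 6503682 with surface proteins and between 5930926 and 6228385 with heat-killed MJ2. Pearson's r of the log2 values over the tested rows was 0.950 to 0.960 within the surface protein libraries, 0.950 to 0.968 within the heat-killed MJ2 libraries and 0.878 to 0.918 between these groups, a description across genes. One library in each group, surface proteins replicate 3 and heat-killed MJ2 replicate 1, holds values above 0 but under 0.5 of a read in 2948 and 2454 rows. Replicate 2 of heat-killed MJ2 stood apart in a different way. It was the heat-killed MJ2 library nearest to the surface protein libraries for 62.7% of the 555 genes higher with surface proteins and for 67.0% of the 543 genes lower. For each gene 1 of the 3 libraries must be the nearest. Among the surface protein libraries, replicate 1 was most often nearest to the other group, for 49.7% of the genes higher and 56.5% of those lower. For the markers fixed for the cell type, Cd68 had 3972, 3920.0 and 3882 adjusted reads with surface proteins and 4121, 4210.0 and 3765 with heat-killed MJ2, and Itgam, Lyz2, Csf1r and Cd14 were all present in every one of the 6 libraries, the lowest value of these being 998 adjusted reads for Itgam. Adgre1, also among the fixed markers, was below that value in libraries of both groups. It was called higher with surface proteins, as given below. Defining markers of other cells were scarce: the 6 epithelial genes were without a read in both groups, and the 6 B cell genes summed to at most 14.6 adjusted reads in a library. Summed T cell markers ran from 48.3 to 99.1 adjusted reads with surface proteins and from 22.6 to 47.0 with heat-killed MJ2, mostly from Lck (1.49, adjusted p = 0.049, the call lost in 12 alternatives), with Cd3e and Cd8a without a read. Erythroid and megakaryocyte markers summed to 80.4 to 105 with surface proteins and 48.4 to 65.4 with heat-killed MJ2 (Gp1bb was called higher, 1.17, adjusted p = 0.0439, the call lost in 8 alternatives). Neutrophil markers summed to 32.8 to 43.3 and 21.3 to 36.8, with Elane, Mpo and Ctsg without a read. Of these, Csf3r was called higher (3.20), having passed the minimum through the surface protein libraries alone, and lost the call in 7 of 15 alternatives. Fibroblast and osteoblast markers summed to 17.6 to 54.1 and 10.8 to 34.8. The part of these markers of other cells in the results below was not tested. In such bulk RNA, fewer cells of a type and less RNA per cell cannot be told apart.

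A gene was counted as different, or called, at an adjusted p under 0.05 (limma, Benjamini-Hochberg over the 10916 rows) and a fold change of at least 2. By that rule 1098 genes differed between the preparations, 10.1% of those tested, of which 555 (5.08%) were higher with surface proteins and 543 (4.97%) were lower. With all libraries scaled to equal totals without Rn45s, a ribosomal RNA row, 472 were higher and 608 lower. The median log2 fold change was 1.39 among the former, -1.56 among the latter and 0.03 over all genes tested. At 4-fold or more, 122 genes were higher and 167 lower. The 3 libraries of one group lay entirely on one side of the other group's 3 for 4613 genes (42.3%), and this held for all 1098 called genes. Of the called genes 61 of the higher and 30 of the lower had passed the minimum through one group alone, so these had to differ. With 3 libraries against 3, the smallest p an exact permutation test can give is 0.1 (two-sided), so none is given for single genes. The counts rest on particular libraries: 342 genes were called without heat-killed MJ2 replicate 1, 424 without heat-killed MJ2 replicate 3, 612 without surface proteins replicate 2 and 644 without surface proteins replicate 3, but 1167 without heat-killed MJ2 replicate 2 and 1048 without surface proteins replicate 1. For this reason genes called under every alternative are named as such below, an alternative being one of 16 other fits (scalings, filters, constants, models and fits without a library, 15 for genes that the stricter filter leaves out) at the same thresholds. The shares called over all genes, 5.08% higher and 4.97% lower, are the background for every list.

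**Figure D1:**
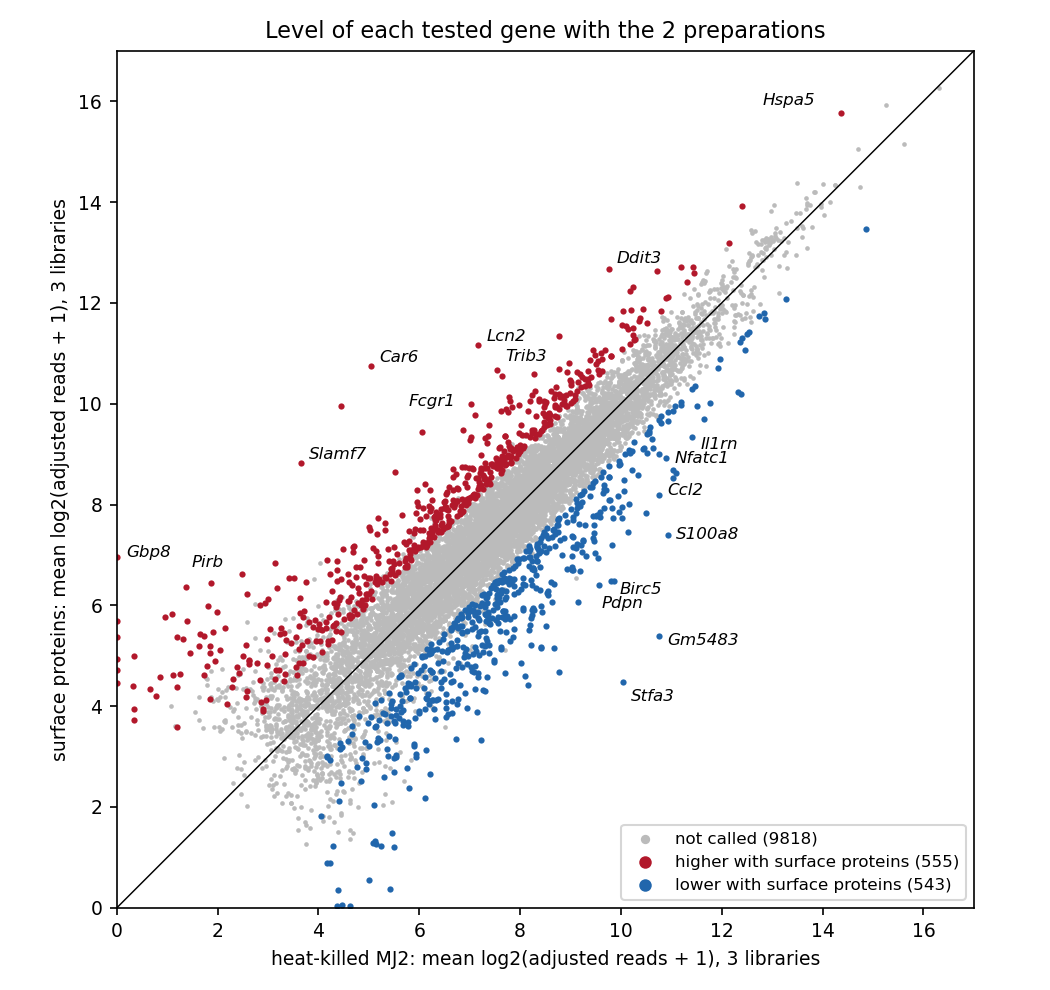
Mean level of each of the 10916 tested genes with heat-killed MJ2 (x axis) and with surface proteins (y axis), both as log2(adjusted reads + 1) over 3 libraries, with the diagonal of equal levels. Red marks the 555 genes higher and blue the 543 genes lower with surface proteins, and most genes lie close to the diagonal.

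By the rule for naming genes, the largest increase was that of Car6, a secreted carbonic anhydrase, on chr4:150187015-150201135 (mm10). It had 1180.0, 2431 and 1773 adjusted reads with surface proteins and 17.4, 99.6 and 18.6 with heat-killed MJ2, with RANKL alone between 0 and 7.66. The groups did not overlap, although heat-killed MJ2 replicate 2 was several-fold above its fellows (log2 fold change 5.70, standard error 0.69, adjusted p = 0.00873). Lcn2 encodes lipocalin-2, an acute-phase protein that binds bacterial siderophores, and lies on chr2:32384637-32387739. It had 1743, 4129 and 1668 adjusted reads with surface proteins and 108, 279 and 95.1 with heat-killed MJ2, with 0 to 0.11 in the libraries with RANKL alone (log2 fold change 4.00, standard error 0.53, adjusted p = 0.0102). Again heat-killed MJ2 replicate 2 was the highest of its group. Of the other genes at the top, Fcgr1, the high-affinity IgG receptor, had 828, 986 and 828 adjusted reads with surface proteins and 110.5, 208 and 113 with heat-killed MJ2 (log2 fold change 2.67, standard error 0.27, adjusted p = 0.00666). Clec4a3, a C-type lectin receptor, had 789.7, 657 and 701 adjusted reads with surface proteins and 108, 129.6 and 111 with heat-killed MJ2 (log2 fold change 2.61, standard error 0.15, adjusted p = 0.00321). Ticam2, the adaptor TRAM that links TLR4 to the interferon-inducing branch of its signalling, had 644, 662 and 633 adjusted reads with surface proteins and 122, 159.6 and 111 with heat-killed MJ2 (log2 fold change 2.31, standard error 0.17, adjusted p = 0.00364). For these 3 genes each surface protein library was above every heat-killed MJ2 library. The 12 largest increases by the naming rule were completed by Cox6a2 (log2 fold change 3.39), Angptl6 (2.98), Acot2, an acyl-CoA thioesterase of mitochondria (2.92), and Ndrg1 (2.57), and by Trib3, Ddit3 and Atf3, which are described next. Car6, Lcn2, Fcgr1, Clec4a3, Ticam2, Acot2 and Ddit3 were called under all alternatives fitted. Among the alternatives Ndrg1 lost the call without heat-killed MJ2 replicate 1 and in no other, while Cox6a2 and Angptl6 lost it without surface proteins replicate 2 or 3 and without heat-killed MJ2 replicate 1 or 3, and Cox6a2 also without surface proteins replicate 1 and with no filter on low values.

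Stress genes of the ATF4 programme that were called were all higher with surface proteins. Of 23 tested members 22 had a log2 fold change above 0, 12 were called higher with surface proteins and 0 lower, and their median was 1.00, beside 5.08% called higher and a median of 0.03 over all genes tested. Ddit3, which encodes the pro-apoptotic factor CHOP, had 5975, 6746 and 6921 adjusted reads with surface proteins and 710.1, 1411 and 643 with heat-killed MJ2, with no overlap (log2 fold change 2.92, standard error 0.31, adjusted p = 0.00666). Trib3, a pseudokinase induced by ATF4 and CHOP, had 1539, 1809 and 1574 adjusted reads with surface proteins and 135, 452 and 102 with heat-killed MJ2 (log2 fold change 3.15, standard error 0.54, adjusted p = 0.017). The spread of the heat-killed MJ2 libraries came from replicate 2, which was highest for both genes, and the surface protein libraries lay within a narrow range. Atf3, a stress-induced transcription factor, had 899, 1539 and 1012 adjusted reads with surface proteins and 162, 474 and 136 with heat-killed MJ2 (log2 fold change 2.35, standard error 0.50, adjusted p = 0.0275). Aldh1l2, the mitochondrial enzyme of folate metabolism, had 1161, 1098 and 952 adjusted reads with surface proteins and 188, 428 and 137 with heat-killed MJ2 (log2 fold change 2.25, standard error 0.41, adjusted p = 0.0197). Nupr1, Atf5 and Sesn2 were also called higher (log2 fold changes 1.93, 1.91 and 1.80), as were the glutathione-degrading enzyme Chac1 (1.46), the amino acid transporter subunit Slc3a2 (1.28), Cebpg (1.17) and Gpt2 (1.00), which lost the call in 11 of 16 alternatives. Atf4 itself had 9640.0, 9461 and 8749 adjusted reads with surface proteins and 4665, 5598 and 3600.0 with heat-killed MJ2 (log2 fold change 1.03, standard error 0.19, adjusted p = 0.0209), a call close to the 2-fold limit. The enzymes of serine and asparagine synthesis were not called: Asns, asparagine synthetase, had a log2 fold change of 0.99 (adjusted p = 0.0202) and Psat1 of -0.17 (adjusted p = 0.476). Without heat-killed MJ2 replicate 1 or 3, 4 and 3 members of the list were called, without surface proteins replicate 2 or 3, 4 and 5, and without heat-killed MJ2 replicate 2, 14. Ddit3, Nupr1 and Sesn2 were called under every alternative, and the other 9 lost the call in at least 1 fit without a library.

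The promoters of these genes were searched because ATF4 binds, as a dimer with a C/EBP factor, a composite element whose core was taken as TGATGNAA, on either strand. In the 300 bases around the start site (250 before, 50 after) it was present in 6 of the 21 list members with a RefSeq promoter (28.6%), in 2.83% of the 8774 tested genes with one and in 4.51% of the 27025 genes in the promoter table. A match is a description of the letters and not a measured binding site. Printed are 4 called members that hold a match, in order of the size of their differences, from RefSeq (GRCm38.p6, the assembly of mm10), 5′ to 3′ on the strand of the gene, with the element in capitals. All of them carry it on the reverse strand, and Atf3, Nupr1 and Chac1 share the same 8 letters.
Trib3: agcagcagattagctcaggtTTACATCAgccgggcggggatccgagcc
Atf3: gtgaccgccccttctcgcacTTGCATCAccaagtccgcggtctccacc
Nupr1: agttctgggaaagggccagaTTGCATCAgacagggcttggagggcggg
Chac1: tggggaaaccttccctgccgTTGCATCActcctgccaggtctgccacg
The windows are chr2:152344019-152344066 for Trib3 (minus strand), chr1:191183416-191183463 for Atf3 (minus strand), chr7:126625553-126625600 for Nupr1 (minus strand) and chr2:119351029-119351076 for Chac1 (plus strand). Counted from the start site, the element begins at position 15 in Trib3, at -110 in Atf3 and in Nupr1, and at -193 in Chac1. The corresponding shares among all called genes are not given, because fewer than 80% of the genes called higher had a promoter in the table.

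The chaperones called were those of the endoplasmic reticulum. Of 18 tested members of a list of chaperones and heat shock proteins, 4 were called higher with surface proteins and 0 lower (median 0.11), and these 4 act in that compartment, although the list was not divided by compartment and no difference between compartments was tested. Hspa5, which encodes its major chaperone BiP, had 70973, 44637 and 53564 adjusted reads with surface proteins and 21633, 20852 and 21188 with heat-killed MJ2 (log2 fold change 1.38, standard error 0.19, adjusted p = 0.0117). Pdia4, a disulfide isomerase, had 3168, 2932 and 2873 adjusted reads with surface proteins and 1018, 1181 and 1074 with heat-killed MJ2 (log2 fold change 1.46, standard error 0.13, adjusted p = 0.00518). Dnajb9 and Herpud1, a co-chaperone and a component of the degradation machinery of that compartment, had log2 fold changes of 1.66 and 1.63 (adjusted p = 0.0147 and 0.0349). Hsp90b1 and Calr were also non-overlapping and higher but under the 2-fold limit (0.90 and 0.84). Among the cytosolic heat shock genes, Hspa1b had a log2 fold change of -1.78 (adjusted p = 0.157, groups overlapping) and Hspa8 of -0.49 (adjusted p = 0.0709), and neither was called. Ero1l, the oxidase that supplies disulfide bonds in the endoplasmic reticulum, belongs to the list of glycolysis and hypoxia genes, of which it was the single member called out of 22 tested (4.55%, under the 5.08% over all genes). It had a log2 fold change of 1.78 (adjusted p = 0.0161). Pdia4 was called under all alternatives, but without heat-killed MJ2 replicate 1 it was the only chaperone of the 4, and without heat-killed MJ2 replicate 3 there were 2. Ero1l was not called without surface proteins replicate 2 or without heat-killed MJ2 replicate 1 or 3.

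Cell cycle genes gave the largest one-sided difference. Of 46 tested genes of DNA replication and cell division, 39 were called lower with surface proteins and 0 higher, with a median log2 fold change of -2.11, beside 4.97% called lower over all genes tested. The mean log2 level of the 46 genes was 6.39 to 7.35 in the surface protein libraries and 8.45 to 8.90 in the heat-killed MJ2 libraries, and the libraries with RANKL alone lay at 8.43 to 8.78, close to the latter. Mki67, the standard marker of cycling cells, had 322, 85.3 and 193 adjusted reads with surface proteins and 1337, 1013 and 1051 with heat-killed MJ2 (log2 fold change -2.68, standard error 0.47, adjusted p = 0.0177). Birc5, which encodes the mitotic protein survivin, had 263, 38.3 and 67.1 adjusted reads with surface proteins and 1183, 648 and 916 with heat-killed MJ2 (log2 fold change -3.32, standard error 0.69, adjusted p = 0.0262). The surface protein libraries differed among themselves here, with replicate 1 above replicates 2 and 3 for both genes, yet all were below the lowest heat-killed MJ2 library. Plk1, a mitotic kinase, had 188, 39.3 and 78.1 adjusted reads with surface proteins and 902, 522 and 899.8 with heat-killed MJ2 (log2 fold change -3.16, standard error 0.57, adjusted p = 0.0191). Mcm6, a subunit of the replicative helicase, had 102, 46.0 and 60.5 adjusted reads with surface proteins and 649.8, 445 and 627 with heat-killed MJ2 (log2 fold change -3.09, standard error 0.32, adjusted p = 0.00666). Rrm2, the regulated subunit of ribonucleotide reductase, had 47.9, 25.9 and 35.3 adjusted reads with surface proteins and 376, 249.6 and 415 with heat-killed MJ2 (log2 fold change -3.23, standard error 0.29, adjusted p = 0.00518). Genes of S phase and of mitosis were both among those called, as Aurkb (-2.94), Cenpf (-2.63), Top2a (-2.48) and Cdk1 (-2.30) show, and 2810417H13Rik, named for the size of its decrease, was lower as well (-2.67). The 2 members above 0 were inhibitors of cyclin-dependent kinases and were not called. Cdkn1a (p21) had 3287, 3635 and 3088 adjusted reads with surface proteins and 2948, 3120.0 and 2750.0 with heat-killed MJ2 (log2 fold change 0.18, standard error 0.14, adjusted p = 0.382), and Cdkn1b (p27) had a log2 fold change of 0.04, a sign that turned with equal totals and without heat-killed MJ2 replicate 3. Tuba1b, an alpha-tubulin placed among the 14 reference genes, was the single one of them called (log2 fold change -2.09, standard error 0.32, adjusted p = 0.0139). The count of 39 was 21 with no filter on low values, 8 without heat-killed MJ2 replicate 1, 8 without heat-killed MJ2 replicate 3, 24 without surface proteins replicate 2 and 17 without surface proteins replicate 3. Mcm6, Rrm2 and Aurkb were called under every alternative, and the median of the list lay below 0 in each of them.

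E2F factors switch on many of these genes at the entry into S phase, through an element whose letters TTCCCGC were searched on either strand. It was found in 7 of the 37 list members with a promoter (18.9%), in 10.0% of the tested genes and in 5.29% of all genes in the promoter table. Shown are 4 called members with a match, again in order of the size of their differences, from the same table and with the element in capitals.
Rrm1: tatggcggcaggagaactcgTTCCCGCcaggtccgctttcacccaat
Mcm7: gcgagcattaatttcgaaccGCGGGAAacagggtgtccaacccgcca
Mcm3: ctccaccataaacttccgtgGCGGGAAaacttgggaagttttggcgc
Cdc6: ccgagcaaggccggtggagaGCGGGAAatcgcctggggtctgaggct
The windows are chr7:102441608-102441654 for Rrm1 (plus strand), chr5:138172022-138172068 for Mcm7 (minus strand), chr1:20820267-20820313 for Mcm3 (minus strand) and chr11:98907993-98908039 for Cdc6 (plus strand). The element begins at -67 in Rrm1, -165 in Mcm7, 20 in Mcm3 and -138 in Cdc6, on the forward strand in Rrm1 and on the reverse strand in the other 3. The log2 fold changes of these genes were -2.16, -2.14, -2.11 and -2.05. For Mcm7 the table holds 2 promoters, and the one with the match is shown.

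**Figure D2:**
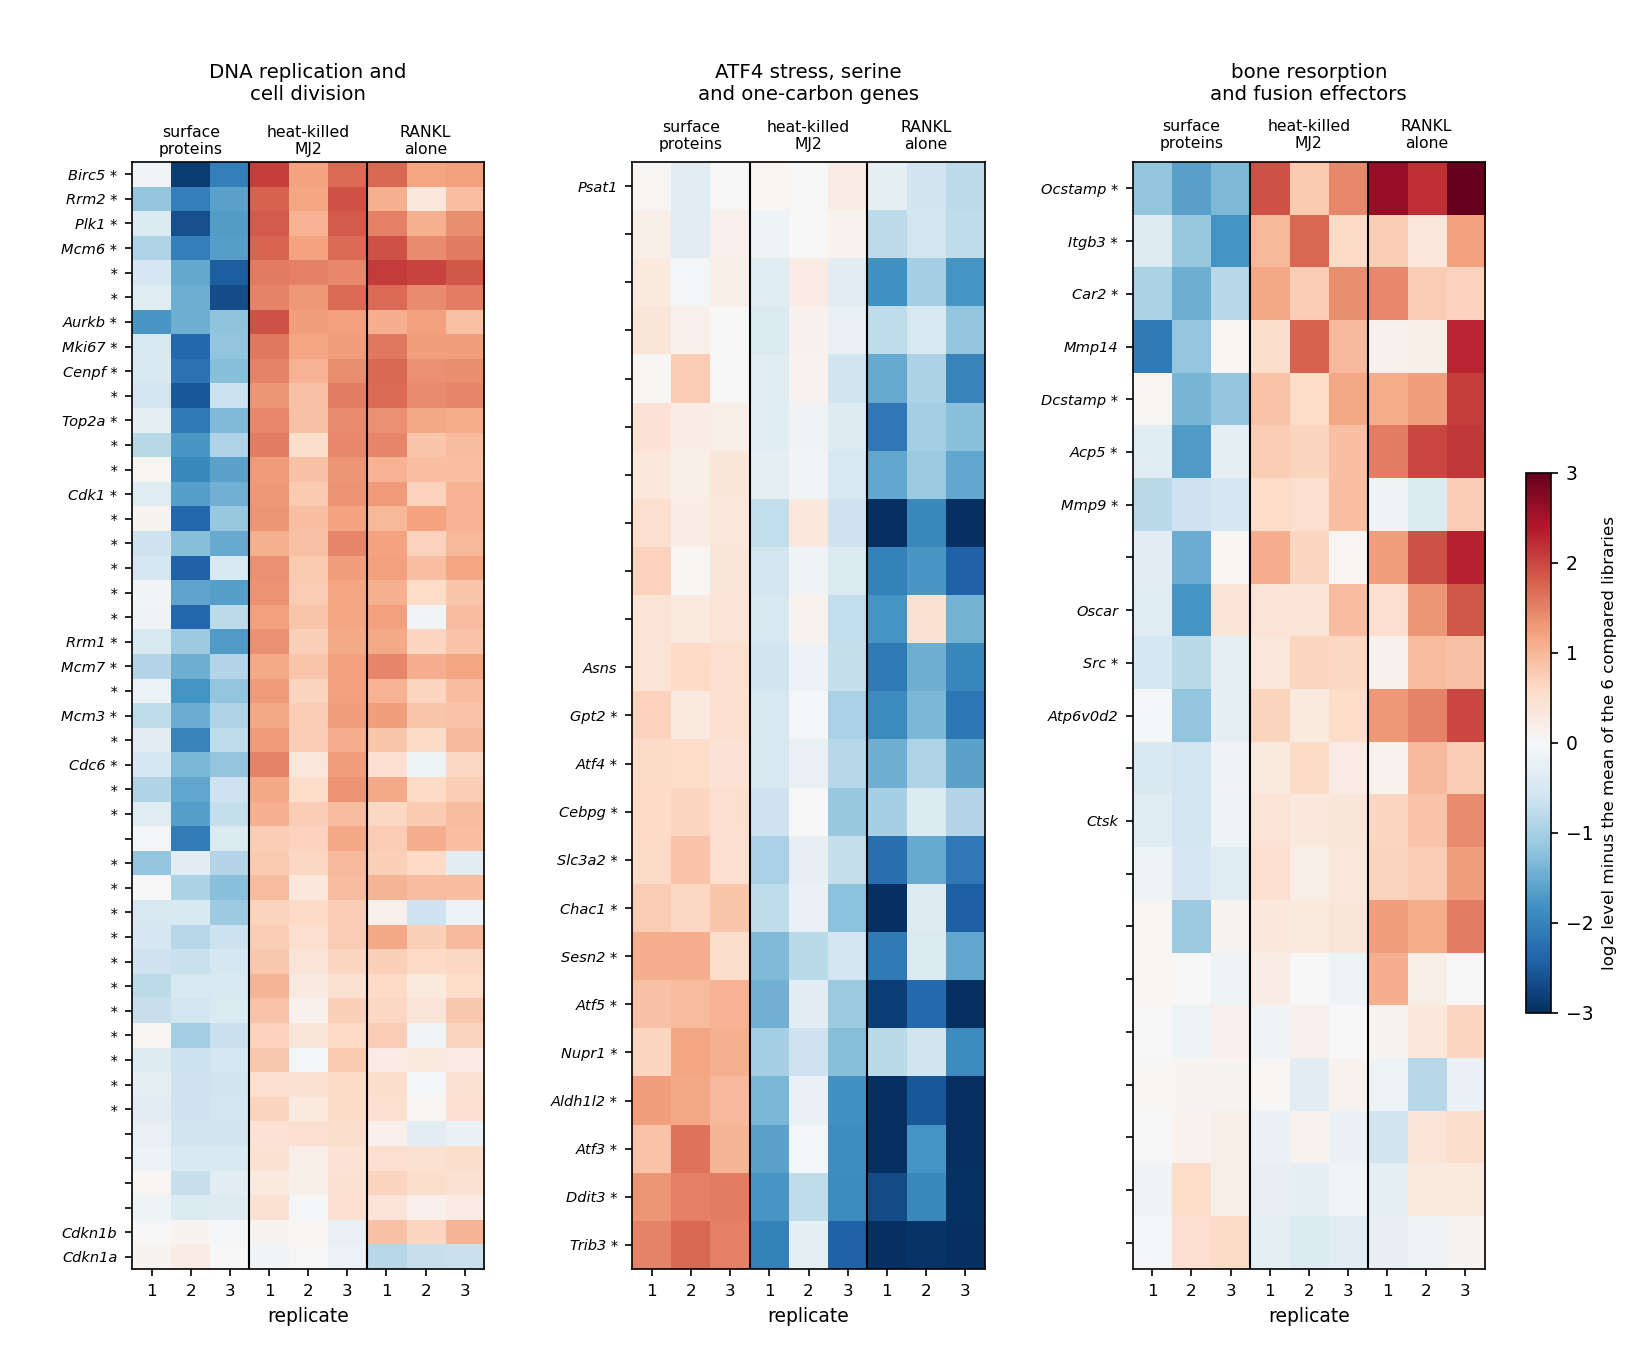
Level of the tested members of 3 lists, apart from 1 cell division gene, in the 9 libraries, as log2(adjusted reads + 1) minus the gene's mean over the 6 compared libraries (colour, capped at 3 in either direction), genes ordered by log2 fold change, called genes marked with an asterisk and names given for genes described in the text. On average over a list, the cell division genes are lowest in the 3 surface protein columns, the stress genes are highest there and lowest with RANKL alone, and the resorption genes step down from RANKL alone over heat-killed MJ2 to surface proteins.

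Osteoclast genes that differed were lower with surface proteins than with heat-killed MJ2. Among 16 tested regulators of osteoclast differentiation 5 were called lower (31.2%) and 0 higher (median -0.81), and among 21 tested effectors of fusion and resorption 7 were called lower (33.3%) and 0 higher (median -1.004), beside 4.97% over all genes. Without surface proteins replicate 2 these medians were -0.52 and -0.65. Nfatc1, the master regulator, had 739, 297 and 511 adjusted reads with surface proteins and 1972, 1754 and 1964 with heat-killed MJ2, and with RANKL alone it stood at 3810.0 to 4698 (log2 fold change -1.97, standard error 0.33, adjusted p = 0.0161). The levels of the 3 treatments did not overlap, and heat-killed MJ2 lay in the middle. Prdm1, which encodes Blimp1, a repressor of the factors that oppose NFATc1, had 75.3, 53.7 and 36.4 adjusted reads with surface proteins and 152, 119 and 159 with heat-killed MJ2 (log2 fold change -1.41, standard error 0.28, adjusted p = 0.0245). Fosl2 and Jdp2, of the AP-1 family, were also called (-1.13 and -1.12), and so was Ppargc1b, a coactivator of mitochondrial genes in osteoclasts (-1.02). The receptors of the cytokines that start the programme were lower without reaching 2-fold: Tnfrsf11a, the receptor RANK, had a log2 fold change of -0.87 (adjusted p = 0.0165), and Csf1r of -0.85 (adjusted p = 0.034). Fos and Mitf were not called (-0.41 and -0.30), nor was the co-receptor Oscar (-1.15, groups overlapping). Of the regulators, Jdp2 was called under every alternative. The list held 1 call without heat-killed MJ2 replicate 1 or 3, 3 without surface proteins replicate 2 and 2 without surface proteins replicate 3.

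Genes that hold osteoclast differentiation back were called in both directions. Of 8 tested repressors, 4 were called higher with surface proteins (50.0%) and 1 lower (median 1.16). Bcl6, a transcriptional repressor, had 307, 399 and 426 adjusted reads with surface proteins and 100.3, 135 and 134 with heat-killed MJ2, while with RANKL alone it had 106 to 128 adjusted reads (log2 fold change 1.60, standard error 0.20, adjusted p = 0.00915). The preparations did not overlap for Bcl6, and it was called under all alternatives. Irf8 had 920.0, 859 and 771 adjusted reads with surface proteins and 323, 574 and 407 with heat-killed MJ2 (log2 fold change 1.00, standard error 0.23, adjusted p = 0.0339), a call at the 2-fold limit that was lost in 12 of 16 alternatives. Lcn2 was also placed in this list. Id1, an inhibitor of differentiation factors, was the single member called lower, with 20.5, 14.3 and 15.5 adjusted reads with surface proteins and 93.0, 49.4 and 119.8 with heat-killed MJ2 (log2 fold change -2.24, standard error 0.34, adjusted p = 0.0137), and it lost the call without heat-killed MJ2 replicate 1. Id3, a relative, had a log2 fold change of 1.32 (adjusted p = 0.211).

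Among the effectors of fusion and resorption, Ocstamp, which is needed for fusion of precursors, had 22.5, 16.2 and 19.9 adjusted reads with surface proteins and 198, 90.9 and 143 with heat-killed MJ2, and 240.4 to 564 with RANKL alone (log2 fold change -2.76, standard error 0.30, adjusted p = 0.00678). Its partner Dcstamp had 497, 185 and 213 adjusted reads with surface proteins and 879, 719 and 1088 with heat-killed MJ2 (log2 fold change -1.71, standard error 0.40, adjusted p = 0.0345). Car2, the carbonic anhydrase that supplies protons for resorption, had 1286, 900.4 and 1369 adjusted reads with surface proteins and 5540.0, 4132 and 6557 with heat-killed MJ2 (log2 fold change -2.19, standard error 0.25, adjusted p = 0.00728). None of these 3 overlapped between the preparations, with surface proteins replicate 2 lowest for each of them. Acp5, which encodes TRAP, had 1332, 525 and 1416 adjusted reads with surface proteins and 2895, 2692 and 3204 with heat-killed MJ2 (log2 fold change -1.55, standard error 0.39, adjusted p = 0.0425). Itgb3 (-2.20), Mmp9 (-1.28) and Src (-1.08) completed the 7. Ctsk, cathepsin K, had 3258, 2861 and 3752 adjusted reads with surface proteins and 5560.0, 5238 and 5389 with heat-killed MJ2, a separation without overlap that stayed under 2-fold (log2 fold change -0.72, standard error 0.15, adjusted p = 0.026). Atp6v0d2 reached 2-fold but not the threshold on p (log2 fold change -1.004, standard error 0.31, adjusted p = 0.0738), and Mmp14 had a log2 fold change of -2.17 (adjusted p = 0.0515). Calcr was under the minimum and was not tested. Ocstamp, Car2 and Mmp9 were called under every alternative, whereas Acp5 and Dcstamp each lost the call in 7 of 16, among them the fit with a replicate block, which called 5 members of the list. With a library left out, 3 members were called without heat-killed MJ2 replicate 1 or 3 and 4 without surface proteins replicate 2.

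**Figure D3:**
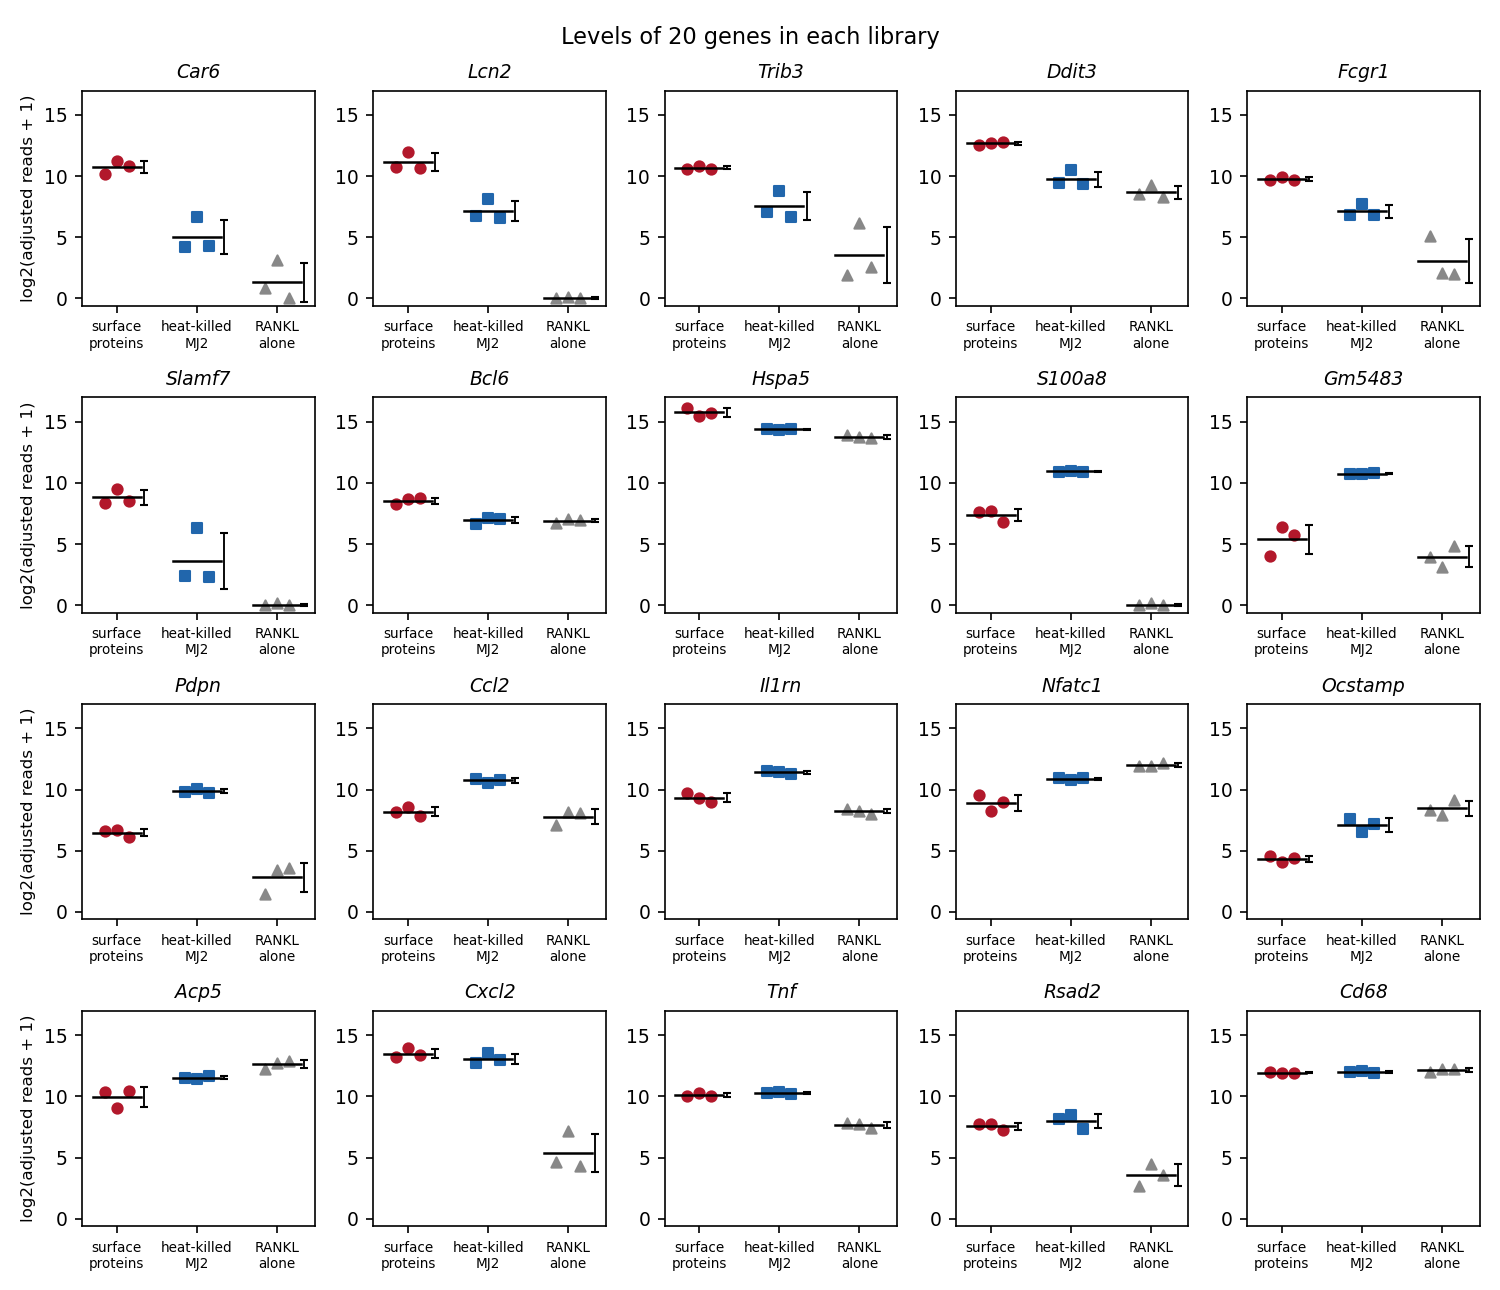
Level of 20 genes in each library, as log2(adjusted reads + 1), for surface proteins (red circles), heat-killed MJ2 (blue squares) and RANKL alone (grey triangles), replicates 1 to 3 from left to right, with the mean of 3 libraries (black line) and the SD (bar). Car6 to Hspa5 are higher with surface proteins, S100a8 to Acp5 are lower, and the surface protein and heat-killed MJ2 libraries overlap for Cxcl2, Tnf, Rsad2 and Cd68.

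Of 10 tested Fc gamma receptors and partners 3 were called higher (30.0%), with a median of 0.65 that was 0.44 without surface proteins replicate 2: Fcgr1, Fcgr4 (1.71, adjusted p = 0.036) and the inhibitory receptor Fcgr2b (1.37, adjusted p = 0.0403). The calls of Fcgr4 and Fcgr2b were lost when surface proteins replicate 2 or 3 or heat-killed MJ2 replicate 1 or 3 was left out, that of Fcgr2b also without surface proteins replicate 1, and Fcgr3 was not called (0.68). Of 11 co-stimulatory and checkpoint ligands 4 were called higher (36.4%) and 0 lower, with a median of 1.41 (0.88 with the stricter filter). Slamf7, a receptor of the SLAM family, had 335, 734 and 371 adjusted reads with surface proteins and 4.13, 77.4 and 3.89 with heat-killed MJ2, replicate 2 being far above the other heat-killed MJ2 libraries (log2 fold change 5.17, standard error 1.10, adjusted p = 0.0275). The call for Slamf7 was lost in the fits without surface proteins replicate 1, 2 or 3 and without heat-killed MJ2 replicate 1 or 3. Slamf9 had 78.3, 96.2 and 89.6 adjusted reads with surface proteins and 18.4, 17.4 and 5.86 with heat-killed MJ2 (log2 fold change 2.72, standard error 0.41, adjusted p = 0.0137), and Cd40, the co-stimulatory receptor for T cell help, had 206, 241 and 253 adjusted reads with surface proteins and 98.2, 53.1 and 73.5 with heat-killed MJ2 (log2 fold change 1.66, standard error 0.24, adjusted p = 0.0127). Both were called under all alternatives. The fourth was Tnfsf9, the ligand 4-1BBL (1.41), while Icosl was not called (2.75, adjusted p = 0.083). This list had 2 calls without surface proteins replicate 2 or 3 or heat-killed MJ2 replicate 3.

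A list of paired immunoglobulin-like, SIRP and C-type lectin receptors held 7 members called higher and 1 lower among 14 tested, with a median of 0.83 (0.33 with the stricter filter). Pirb, Pira2 and Pira6 had passed the minimum through the surface protein libraries alone and so were bound to differ. Pirb, an inhibitory receptor for MHC class I, had 85.2, 103 and 107 adjusted reads with surface proteins and 9.24, 1.89 and 4.88 with heat-killed MJ2 (log2 fold change 4.15). Its activating relatives Pira2 and Pira6 had log2 fold changes of 2.27 and 3.44. Rows of this family share near-identical sequence, and Pira1 and Pira2 hold identical values in 5 of the 6 libraries, so how reads were divided among them is uncertain. Sirpa, which restrains phagocytosis, was called higher (1.04), and so was Sirpb1b (1.29), whose call was lost in 9 of 16 alternatives. Clec4a1 and Clec4a3 were higher (2.73 and 2.61), whereas Clec4n, which encodes the fungal receptor Dectin-2, had 34.2, 66.2 and 40.8 adjusted reads with surface proteins and 194, 226 and 295 with heat-killed MJ2 and was lower (log2 fold change -2.35, standard error 0.29, adjusted p = 0.00876). Calls in both directions thus come from 1 gene cluster on chromosome 6. Clec4a3 and Clec4n were called under every alternative. The 7 calls were 3 without surface proteins replicate 2 or heat-killed MJ2 replicate 1 or 3, and 4 without surface proteins replicate 1 or 3.

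Some called genes were neighbours, and 4 clusters, chosen after their values had been seen, are given in chromosomal order. Positions are those of RefSeq on GRCm38.p6. The stefin genes are cysteine protease inhibitors. In the window chr16:35984212-36655392 12 gene rows were found, 7 were tested and 4 called lower with surface proteins, all of them stefin or stefin-like genes: Stfa3 (-5.56), Gm5483, listed in RefSeq as Cstdc4 (-5.37), Gm5416, listed as Csta3 (-4.09), and 2010005H15Rik, listed as Csta2. Gm5483 had 15.6, 82.5 and 51.8 adjusted reads with surface proteins and 1714, 1737 and 1749 with heat-killed MJ2, with 7.66 to 27.7 in the libraries with RANKL alone (log2 fold change -5.37, standard error 0.56, adjusted p = 0.00666). Stfa3 had 23.4, 50.8 and 7.83 adjusted reads with surface proteins and 1027, 1218 and 931 with heat-killed MJ2. Both were far higher in every heat-killed MJ2 library than in any surface protein library. For 2010005H15Rik, at under 1 adjusted read in each surface protein library, the level was at least 7.92-fold higher with heat-killed MJ2, against a floor of 3 reads. These genes are near-identical copies, so the division of reads among them is uncertain. Stfa3, Gm5483 and Gm5416 were called under every alternative.

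The Serpinb genes, serine protease inhibitors of the ovalbumin type, gave a second cluster, chr1:106734449-107808978, where 6 of 13 rows were tested and 4 were called lower. Serpinb2, the plasminogen activator inhibitor 2 of activated macrophages, had 16.3, 14.6 and 31.5 adjusted reads with heat-killed MJ2 and under 0.1 in each surface protein library, at least 6.93-fold higher with the heat-killed cells. Serpinb11 and Serpinb12 were at least 16.5-fold and 6.96-fold higher there. Serpinb2, Serpinb11, Serpinb12 and 2010005H15Rik had passed the minimum through the heat-killed MJ2 libraries alone, and so were bound to differ. Serpinb8 was measured in both groups (-1.36, adjusted p = 0.035), and it lost the call without surface proteins replicate 1 or 2 or heat-killed MJ2 replicate 1 or 3. Serpinb7 was not called (-2.18, adjusted p = 0.17).

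Around the Pir genes, chr7:3512505-4045104, 12 of 15 rows were tested and Pirb, Pira1 and Pira2 were called higher, while none of the other 9 tested neighbours, from Oscar to Rps9, was called. As stated above, Pirb and Pira2 had passed the minimum through the surface protein libraries alone and so were bound to differ. Pira1 and Pira2 hold identical values in 5 of the 6 libraries and are not separate calls. In the Clec4 cluster, chr6:122721848-123447024, 12 of 15 rows were tested. C3ar1, the receptor for complement C3a, and the adjacent Clec4a1, Clec4a3, Clec4a4 and Clec4b1 were called higher, Clec4a2, Clec4d and Clec4e were not called (-0.10, 0.39 and 0.18), and Clec4n was lower. Clec4a4 and Clec4b1 were close to the threshold (adjusted p = 0.0332 and 0.032) and lost the call without surface proteins replicate 1 or 3 and when any single heat-killed MJ2 library was left out. Clec4a1 lost it without heat-killed MJ2 replicate 1 or 3 and when any single surface protein library was left out, and Pira1 without heat-killed MJ2 replicate 1.

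**Figure D4:**
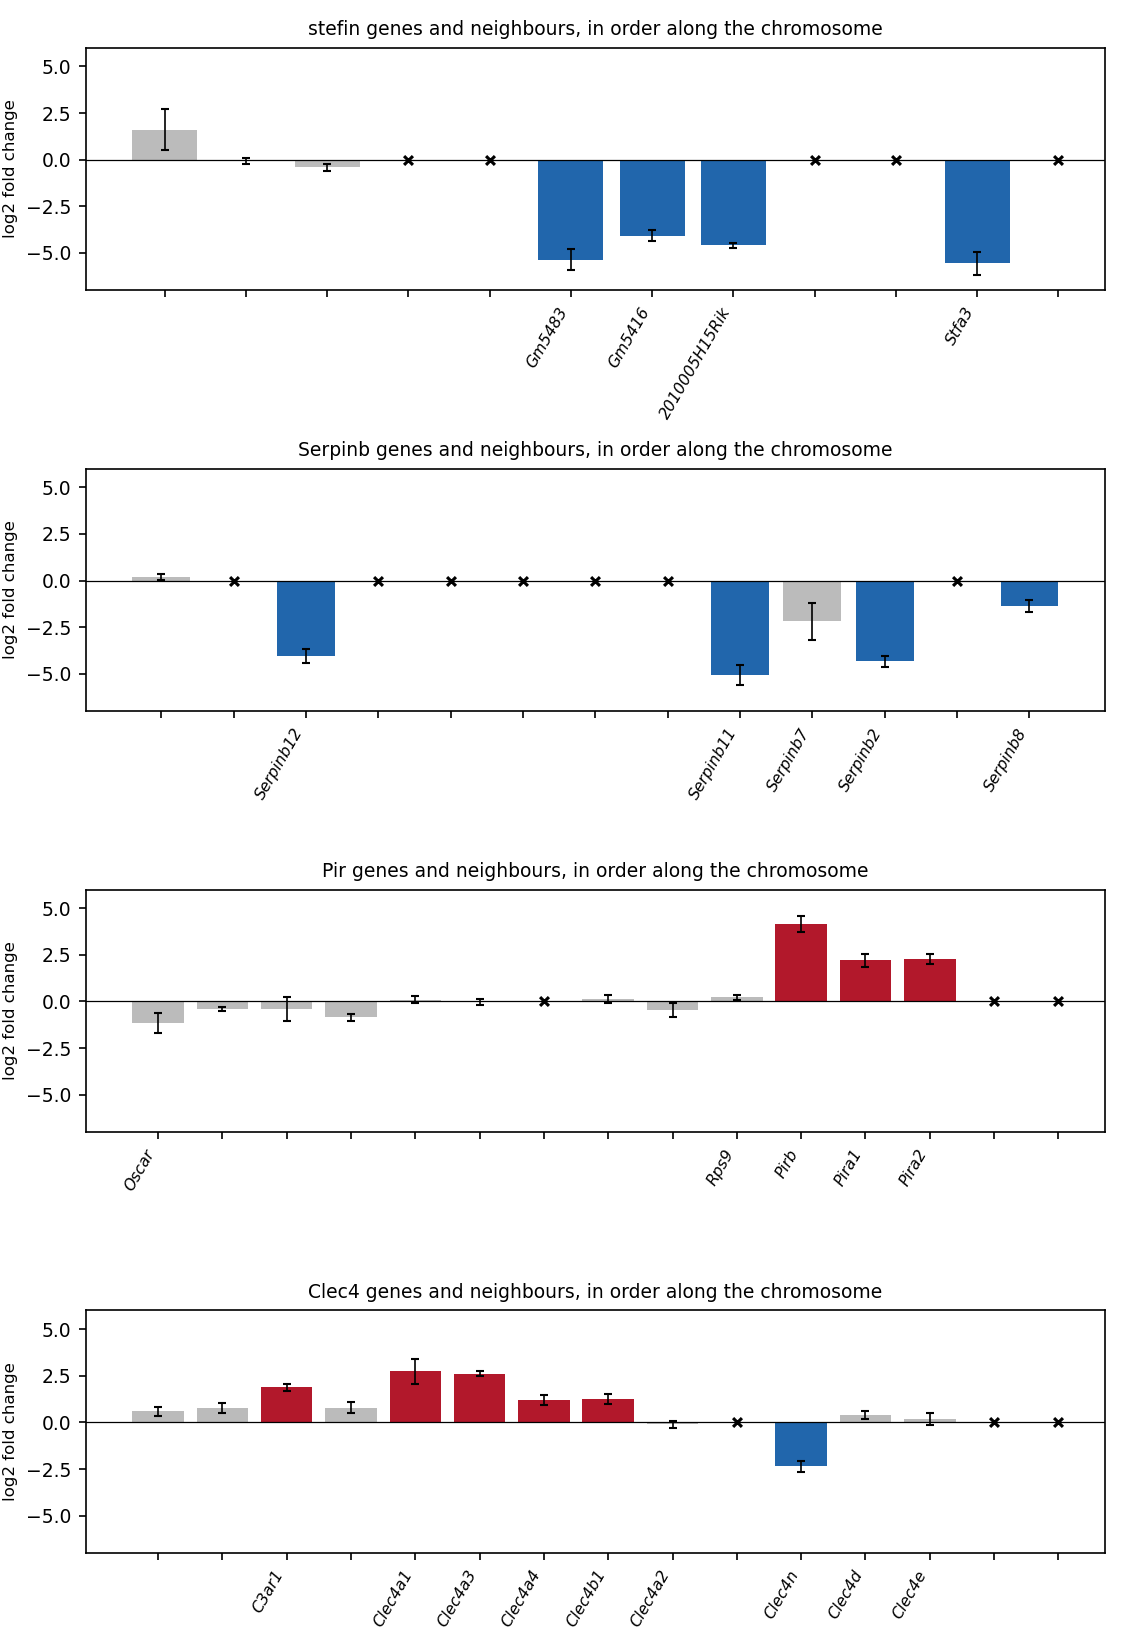
Log2 fold change of surface proteins over heat-killed MJ2 (bars, with standard errors) for the protein-coding gene rows in and 200 kb around 4 gene clusters, in order along the chromosome, with equal spacing and with names for genes described in the text. Red bars are called higher, blue bars called lower, grey bars not called, and crosses mark rows that were not tested. The called genes are the family members themselves and, beside the Clec4 genes, C3ar1. Rows that passed the minimum through one group alone are not marked.

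Toll-like receptor and NOD-like receptor genes were described as separate lists. Of 19 tested Toll-like receptors and co-receptors 17 had a log2 fold change above 0, with a median of 0.47, and Ticam2 was the single one called (5.26%, beside 5.08% called higher over all genes). Tlr2, the receptor for bacterial lipoproteins, had a log2 fold change of 0.23 (adjusted p = 0.38), Tlr4 of 0.43 (adjusted p = 0.14) and the adaptor Myd88 of 0.03 (adjusted p = 0.901), a sign that turned under quantile normalization, with equal totals and without surface proteins replicate 3 or heat-killed MJ2 replicate 2. Cd14 was lower by 0.73 on the log2 scale and under the limit. Among 13 NOD-like receptor and inflammasome genes 4 were called higher (30.8%) and 0 lower (median 0.38). They were Naip2 and Naip5, sensors of bacterial secretion and flagellin proteins (1.76 and 1.05), and the inflammatory caspases Casp4 and Casp1 (1.53 and 1.28). Naip2 had 318, 346 and 310.3 adjusted reads with surface proteins and 97.2, 137 and 63.8 with heat-killed MJ2 (log2 fold change 1.76, standard error 0.28, adjusted p = 0.0145). Nlrp3 showed no difference of a stable sign (0.02, adjusted p = 0.97, reversed in 7 alternatives). The 4 calls were 0 without heat-killed MJ2 replicate 1 and 1 without heat-killed MJ2 replicate 3 or surface proteins replicate 2.

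Among the genes that NF-kB induces to regulate itself, 2 of 18 were called higher (11.1%, beside 5.08% over all genes) and 1 lower (5.56%, beside 4.97%), with a median of 0.23. Nfkbiz, a nuclear cofactor for late cytokine genes, had 801, 1170.0 and 984 adjusted reads with surface proteins and 188, 288 and 214 with heat-killed MJ2 (log2 fold change 2.10, standard error 0.22, adjusted p = 0.00666), and was called under all alternatives. Bcl3 was higher (1.05) and Tnip3 lower (-1.24). Nfkbia, the classical inhibitor, overlapped between the groups (-0.26), and Nfkbie was not called (-1.20, adjusted p = 0.0721). The NF-kB list held 1 call higher without heat-killed MJ2 replicate 1 or 2, and Tnip3 lost its call without surface proteins replicate 1, 2 or 3 and heat-killed MJ2 replicate 1 or 3. Of 15 genes that dampen cytokine signals, Irak3, an inhibitor of Toll-like receptor signalling (1.21), and the phosphatase gene Dusp1 (1.02) were called higher (13.3%, beside 5.08%), and 0 were in the fit over all 9 libraries. Cish, a target of STAT5, was the 1 member called lower (6.67%, near the 4.97% over all genes), at least 7.14-fold higher with heat-killed MJ2, where it passed the minimum alone. Socs3 overlapped (0.27). Irak3 was not called without heat-killed MJ2 replicate 1 or 3, Cish not without surface proteins replicate 3 or heat-killed MJ2 replicate 1, and Dusp1 lost the call without surface proteins replicate 2 or 3 and when any single heat-killed MJ2 library was left out.

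Chemokines were lower with surface proteins where they differed. Of 14 tested, 6 were called lower (42.9%) and 0 higher, with a median of -0.95. Ccl2, the main attractant of monocytes, had 284, 388 and 227 adjusted reads with surface proteins and 1916, 1501 and 1801 with heat-killed MJ2, and with RANKL alone 135 to 290.0 (log2 fold change -2.56, standard error 0.23, adjusted p = 0.00518). Levels with surface proteins thus reached into the range of RANKL alone, while every heat-killed MJ2 library was above it. Cxcl10 and Cxcl11, ligands of CXCR3, had log2 fold changes of -2.28 and -3.99, and Cxcl11 had passed the minimum through the heat-killed MJ2 libraries alone. Ccl6 (-1.72), Ccl7 (-1.10) and Ccl9 (-1.03) were the others. Cxcl2, an attractant of neutrophils, was not called: it had 9299, 15456 and 10630.0 adjusted reads with surface proteins and 6769, 11926 and 7896 with heat-killed MJ2 (log2 fold change 0.42, standard error 0.29, adjusted p = 0.338), and the groups also overlapped for Ccl3 (-0.33) and Ccl4 (0.15, below 0 without surface proteins replicate 2). Ccl2 was called in every alternative and Cxcl10 in all but the fit over 9 libraries, and the list had 3 calls without heat-killed MJ2 replicate 1 or 3. Of 6 tested chemokine receptors 2 were lower (33.3%): Cx3cr1, the fractalkine receptor, had 170.3, 59.4 and 175 adjusted reads with surface proteins and 892, 560.1 and 828 with heat-killed MJ2 (log2 fold change -2.61, standard error 0.45, adjusted p = 0.0173), and Ccr1 had a log2 fold change of -1.30. Ccr2 and Ccr3 were not called (2.62 and -3.07, adjusted p = 0.0697 and 0.076). Neither Cx3cr1 nor Ccr1 was called without heat-killed MJ2 replicate 1 or 3.

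Cytokines were split. Of 14 tested, 3 were called higher and 3 lower with surface proteins (21.4% each). The median of -0.24 was -0.06 without surface proteins replicate 2, -0.11 without heat-killed MJ2 replicate 2 and -0.55 with no filter on low values. Il1rn, the antagonist of the interleukin-1 receptor, had 846, 632 and 511 adjusted reads with surface proteins and 2948, 2733 and 2498 with heat-killed MJ2 and was lower (log2 fold change -2.07, standard error 0.21, adjusted p = 0.00666). Csf3, the growth factor of neutrophils, had 81.2, 101 and 62.7 adjusted reads with surface proteins and 343, 344 and 275 with heat-killed MJ2 and was lower too (log2 fold change -1.98, standard error 0.21, adjusted p = 0.00666). With RANKL alone both stood below either preparation, Il1rn at 263 to 334 and Csf3 at 0 to 1.78 adjusted reads, and both were called under every alternative. Il15 was the third gene called lower (-1.25). On the other side Il23a, the distinctive subunit of interleukin-23, had 44.1, 33.7 and 54.3 adjusted reads with surface proteins and 12.3, 0 and 2.92 with heat-killed MJ2 and was higher (log2 fold change 3.57, standard error 0.88, adjusted p = 0.0403), as were Ebi3, a subunit of interleukin-27 (1.05), and Tnfsf9. Tnf had 1018, 1260.0 and 1053 adjusted reads with surface proteins and 1235, 1322 and 1202 with heat-killed MJ2 and overlapped between the groups (log2 fold change -0.18, standard error 0.14, adjusted p = 0.411). Il1b overlapped between the groups (-2.51, adjusted p = 0.0741). Il15, Ebi3 and Tnfsf9 were not called without surface proteins replicate 2 or 3 or heat-killed MJ2 replicate 1 or 3, and Il23a not when any single surface protein library or heat-killed MJ2 replicate 3 was left out. The list had 1 call higher without heat-killed MJ2 replicate 1 or surface proteins replicate 3, and 0 without heat-killed MJ2 replicate 3 or surface proteins replicate 2.

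Antimicrobial and acute-phase genes also went in both directions, with 4 of 9 tested called higher (44.4%) and 2 lower (22.2%), and a median of 0.96 that was 0.25 with no filter on low values. S100a8, one chain of the calcium-binding protein calprotectin, lies on chr3:90669071-90670034 and had 198, 209 and 113 adjusted reads with surface proteins and 1899, 2056 and 1906 with heat-killed MJ2, with 0 to 0.11 for RANKL alone (log2 fold change -3.54, standard error 0.25, adjusted p = 0.00364). It was called under every alternative, and its partner S100a9 was under the minimum. Slpi, an inhibitor of leukocyte proteases, was lower (-1.36). Beside Lcn2, Wfdc17, another protease inhibitor, had 811, 1301 and 961 adjusted reads with surface proteins and 211, 361 and 204 with heat-killed MJ2 (log2 fold change 2.01, standard error 0.29, adjusted p = 0.0124). Cp, ceruloplasmin, and Slc11a1, the phagosomal metal transporter NRAMP1, were higher (1.54 and 1.07). Saa3 was not called (0.96, adjusted p = 0.0964) and Lyz2 was not either (-0.31). Without heat-killed MJ2 replicate 1 Lcn2 was the 1 member called higher, and 2 were without heat-killed MJ2 replicate 3 or surface proteins replicate 2. Slpi lost its call without surface proteins replicate 1 or 3 or when any single heat-killed MJ2 library was left out. Among the largest decreases outside the lists, Pdpn, the membrane glycoprotein podoplanin, had 94.9, 106 and 70.4 adjusted reads with surface proteins and 901, 1060.0 and 840.0 with heat-killed MJ2, against 1.78 to 10.9 with RANKL alone (log2 fold change -3.37, standard error 0.20, adjusted p = 0.00321), and passed in all alternatives. D17H6S56E-5, listed under that symbol, was lower as well (log2 fold change -2.51, standard error 0.33, adjusted p = 0.01). Mmp12, the macrophage elastase, was at least 10.5-fold higher with heat-killed MJ2, having passed the minimum through that group alone.

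None of the genes in the antiviral list was called in the main comparison. Of 34 tested antiviral interferon-stimulated genes 0 were called in either direction by limma (up to 2 lower or 1 higher under the alternatives), 14 were above and 20 below 0, and the median was -0.18, a sign that turned without heat-killed MJ2 replicate 2 (0.09). The mean log2 level of the 34 genes was 7.09 to 7.43 with surface proteins, 7.15 to 8.05 with heat-killed MJ2 and 3.97 to 4.60 with RANKL alone. Rsad2, which encodes viperin, had 212, 210.3 and 148 adjusted reads with surface proteins and 277, 359 and 164 with heat-killed MJ2 (log2 fold change -0.43, standard error 0.32, adjusted p = 0.376). Ifit1 had 50.9, 75.8 and 29.8 adjusted reads with surface proteins and 128, 285 and 104 with heat-killed MJ2 (log2 fold change -1.66, standard error 0.48, adjusted p = 0.0602), and the relatives Ifit3 and Ifit3b had log2 fold changes of -1.53 and -2.25 (adjusted p = 0.0683 and 0.0911). Heat-killed MJ2 replicate 2 was the highest library for Rsad2, Ifit1, Ifit3 and Ifit3b. Isg15 (-0.37) turned to 0.07 without that library. The STAT and IRF factors were likewise without a call among 13 tested (median 0.35). At an unadjusted p under 0.05, 7 of the 34 antiviral genes and 2 of the 13 factors were found. Among 6 tested guanylate-binding and immunity-related GTPases, 1 was called in each direction. Gbp8 had 84.2, 253 and 87.6 adjusted reads with surface proteins and under 0.1 in each heat-killed MJ2 library, at least 47.2-fold higher, and it passed the minimum through the surface protein libraries alone. That bound uses the mean of the surface protein libraries, which replicate 2 raised. Gbp7 had 37.2, 53.7 and 42.9 adjusted reads with surface proteins and 156, 253 and 186 with heat-killed MJ2 (log2 fold change -2.11, standard error 0.23, adjusted p = 0.007). These genes share sequence with their neighbours, so the division of reads is uncertain. The call of Gbp7 held under every alternative. Gbp3 and Irgm1 were not called (-3.20 and -0.84).

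Metabolic and lipid mediator genes that respond to bacterial products were called in both directions. Among 9 genes of itaconate, nitric oxide and arginine metabolism 1 was called higher and 1 lower, beside 10.1% called in either direction over all genes. Odc1, the first enzyme of polyamine synthesis, had 905, 823 and 756 adjusted reads with surface proteins and 3308, 2960.0 and 3417 with heat-killed MJ2 (log2 fold change -1.96, standard error 0.14, adjusted p = 0.00364). Gch1, which makes the cofactor of nitric oxide synthase, had 1065, 998 and 758 adjusted reads with surface proteins and 264, 335 and 257 with heat-killed MJ2 (log2 fold change 1.71, standard error 0.19, adjusted p = 0.00742). Both were called under every alternative, in opposite directions, while Nos2 itself overlapped (0.30). Of 14 prostaglandin and leukotriene genes 14.3% were called in each direction, beside 5.08% higher and 4.97% lower over all genes. There were 2 higher, Ptger2 (1.74) and Hpgds, the prostaglandin D synthase (1.37), and 2 lower, Ptger4 (-1.95) and Alox5, the 5-lipoxygenase (log2 fold change -1.57, standard error 0.20, adjusted p = 0.0098). Ptgs2 and Ptgs1 were not called (-0.72 and -2.16). Alox5 was called under all alternatives, and the other 3 were not called without heat-killed MJ2 replicate 1 or 3. Hpgds had 678, 1197 and 889.8 adjusted reads with surface proteins and 329, 417 and 305 with heat-killed MJ2.

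Of 23 NRF2 targets, Sqstm1, the autophagy receptor p62, and Slc7a11, the cystine transporter, were called higher (8.70%, beside 5.08% over all genes) and 0 lower (median 0.19). Sqstm1 had 13206, 19375 and 14724 adjusted reads with surface proteins and 4386, 8157 and 4494 with heat-killed MJ2 (log2 fold change 1.52, standard error 0.29, adjusted p = 0.0222). Slc7a11 had 2758, 3813 and 3097 adjusted reads with surface proteins and 1103, 1959 and 1030.0 with heat-killed MJ2, and 33.6 to 135 with RANKL alone (log2 fold change 1.29, standard error 0.28, adjusted p = 0.03). Hmox1, heme oxygenase 1 and a textbook target, was higher without overlap but passed neither the threshold on p nor that on the fold (0.36, adjusted p = 0.126). The calls of Sqstm1 and Slc7a11 were lost without heat-killed MJ2 replicate 1 or 3, without surface proteins replicate 2 or 3 and with no filter on low values. Slc7a11 also lost the call without surface proteins replicate 1 and in the fit over all 9 libraries. Among 14 iron genes, Lcn2, Slc11a1 and the metal importer Slc39a14 (1.70) were higher (21.4%, beside 5.08%), and Tfrc, the transferrin receptor, had 892, 917 and 778 adjusted reads with surface proteins and 1897, 1675 and 1754 with heat-killed MJ2 and was lower (log2 fold change -1.04, standard error 0.14, adjusted p = 0.0102). Fth1, the ferritin heavy chain, was not called (0.68). Tfrc lost the call without surface proteins replicate 3 or heat-killed MJ2 replicate 1, Slc39a14 without heat-killed MJ2 replicate 3, and 1 iron gene was called higher without heat-killed MJ2 replicate 3.

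Of 29 lysosomal genes 3 were called higher (10.3%, beside 5.08% over all genes) and 0 lower, 24 were above 0 (beside 52.2% of all genes), and the median was 0.41. They were Npc1, the cholesterol exporter of lysosomes (1.33), Atp6v0a1, a proton pump subunit (1.09), and Lamp2 (1.01). Ctsd, cathepsin D, stayed under 2-fold (0.90). None of the 3 was called without surface proteins replicate 2 or heat-killed MJ2 replicate 1 or 3, and 2 were without surface proteins replicate 3. Of 28 cholesterol genes 3 were called lower (10.7%, beside 4.97% over all genes) and 0 higher, with 20 below 0 and a median of -0.44. Among them were Idi1 and Mvk, enzymes of the mevalonate pathway. Idi1 had 117, 54.6 and 101 adjusted reads with surface proteins and 236, 200.3 and 242 with heat-killed MJ2 (log2 fold change -1.37, standard error 0.30, adjusted p = 0.0294), and Mvk had a log2 fold change of -1.07. The list held 1 call lower without heat-killed MJ2 replicate 1 or 3 or surface proteins replicate 3, and neither Idi1 nor Mvk was called there. There were 6 members called lower without surface proteins replicate 1 and 5 without heat-killed MJ2 replicate 2. The efflux transporter Abca1 was not called (1.42, adjusted p = 0.0685). In a list of oxidative phosphorylation subunits, 25 of 28 were below 0 (median -0.36) and 0 were called by limma. None of the 28 reached 2-fold, and 2 had an adjusted p under 0.05 (13 had an unadjusted p under 0.05). The largest were Ndufb3 (-0.86) and Ndufa4 (-0.73). Cox6a2, a subunit of cytochrome c oxidase that was called higher (3.39), was not in this list.

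The macrophage identity list held 5 genes called higher (23.8%) and 1 lower (4.76%, near the background) among 21 (median 0.55). Adgre1, which encodes the macrophage marker F4/80, had 712, 1113 and 966 adjusted reads with surface proteins and 214, 255 and 186 with heat-killed MJ2, and 26.7 to 106 with RANKL alone (log2 fold change 2.07, standard error 0.22, adjusted p = 0.00666). Ms4a7, which passed the minimum through the surface protein libraries alone, was higher too (2.64), as were Cd5l (1.44) and Clec10a (1.26). Cd68 was not called (-0.04, adjusted p = 0.856), Itgam was higher under the limit (0.75), and Csf1r and Cd14 were lower under the limit. Adgre1 and Fcgr1 were called under all alternatives. There were 2 calls higher without heat-killed MJ2 replicate 3 or surface proteins replicate 3. Among 14 receptors for metabolites and formyl peptides 4 were higher (28.6%) and 3 lower (21.4%), with a median of 0.64 (0.40 with the stricter or no filter). C3ar1 had 2760.0, 3810.0 and 3326 adjusted reads with surface proteins and 768, 1117 and 829 with heat-killed MJ2 (log2 fold change 1.87, standard error 0.21, adjusted p = 0.00696), and C5ar1, the receptor for complement C5a, had 174, 95.9 and 116 adjusted reads with surface proteins and 376, 298 and 288 with heat-killed MJ2 (log2 fold change -1.34, standard error 0.25, adjusted p = 0.021). These receptors for complement fragments were called in opposite directions. Ffar2, a receptor for short-chain fatty acids such as propionate, had 14.7, 17.4 and 36.6 adjusted reads with surface proteins and under 0.1 in each heat-killed MJ2 library, at least 7.63-fold higher, and it too passed the minimum through one group alone. P2rx4 (1.22) and Fpr2 (1.23) were higher, and P2ry6 (-1.07) and Adora2b (-1.38) lower, although Fpr2 lost the call in 11 of 16 alternatives and Adora2b in 9. C3ar1 and P2ry6 were called in every alternative. Without heat-killed MJ2 replicate 1 or 3 or surface proteins replicate 2 or 3, 2 of these receptors were higher, and C5ar1 lost its call. Of 9 complement genes, C3 (1.23) and C3ar1 were higher and 3 were lower, among them Itgax (-1.004) and C5ar1 (median 0.21), and 0 of the 3 lower calls stood without heat-killed MJ2 replicate 1 or 3 or surface proteins replicate 2 or 3. C3 lost its call in 10 of 15 alternatives and Itgax in 10 of 16.

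Early-response transcription factors gave 5 calls higher (22.7%) and 1 lower (4.55%, near the background) among 22 (median 0.38). Klf2 and Klf4, regulators of macrophage quiescence, had log2 fold changes of 1.82 and 1.67, Egr1 of 1.17 and Batf, which passed the minimum through the surface protein libraries alone, of 2.39. Klf4 had 223, 319 and 354 adjusted reads with surface proteins and 89.0, 148 and 57.9 with heat-killed MJ2. With Atf3 these 5 were the higher genes, and Fosl2 was the lower one. Their calls did not stand without heat-killed MJ2 replicate 1 or 3 or surface proteins replicate 2, where 0 were called higher, and 1 was without surface proteins replicate 3. Of 24 survival and death genes 1 was called (4.17%, under the 5.08% called higher over all genes): Bbc3, which encodes the pro-apoptotic protein PUMA, had 748, 1313 and 1200.0 adjusted reads with surface proteins and 269, 548 and 244 with heat-killed MJ2 (log2 fold change 1.67, standard error 0.37, adjusted p = 0.031), and was not called without heat-killed MJ2 replicate 1 or 3 or surface proteins replicate 2 or 3. Fas was not called (1.14). Of 16 MHC and antigen processing genes Cd74, the invariant chain, was the single one called (6.25%, near the 5.08% over all genes). Its values were a log2 fold change of 1.12 and an adjusted p of 0.0228, and it lost the call without surface proteins replicate 2 or 3 or heat-killed MJ2 replicate 1 or 3. Apart from Tuba1b the reference genes ranged in log2 fold change from -0.47 in Actb to 0.36 in Eef1a1, and Gapdh had 0.06, a sign that turned with equal totals and without surface proteins replicate 1.

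**Figure D5:**
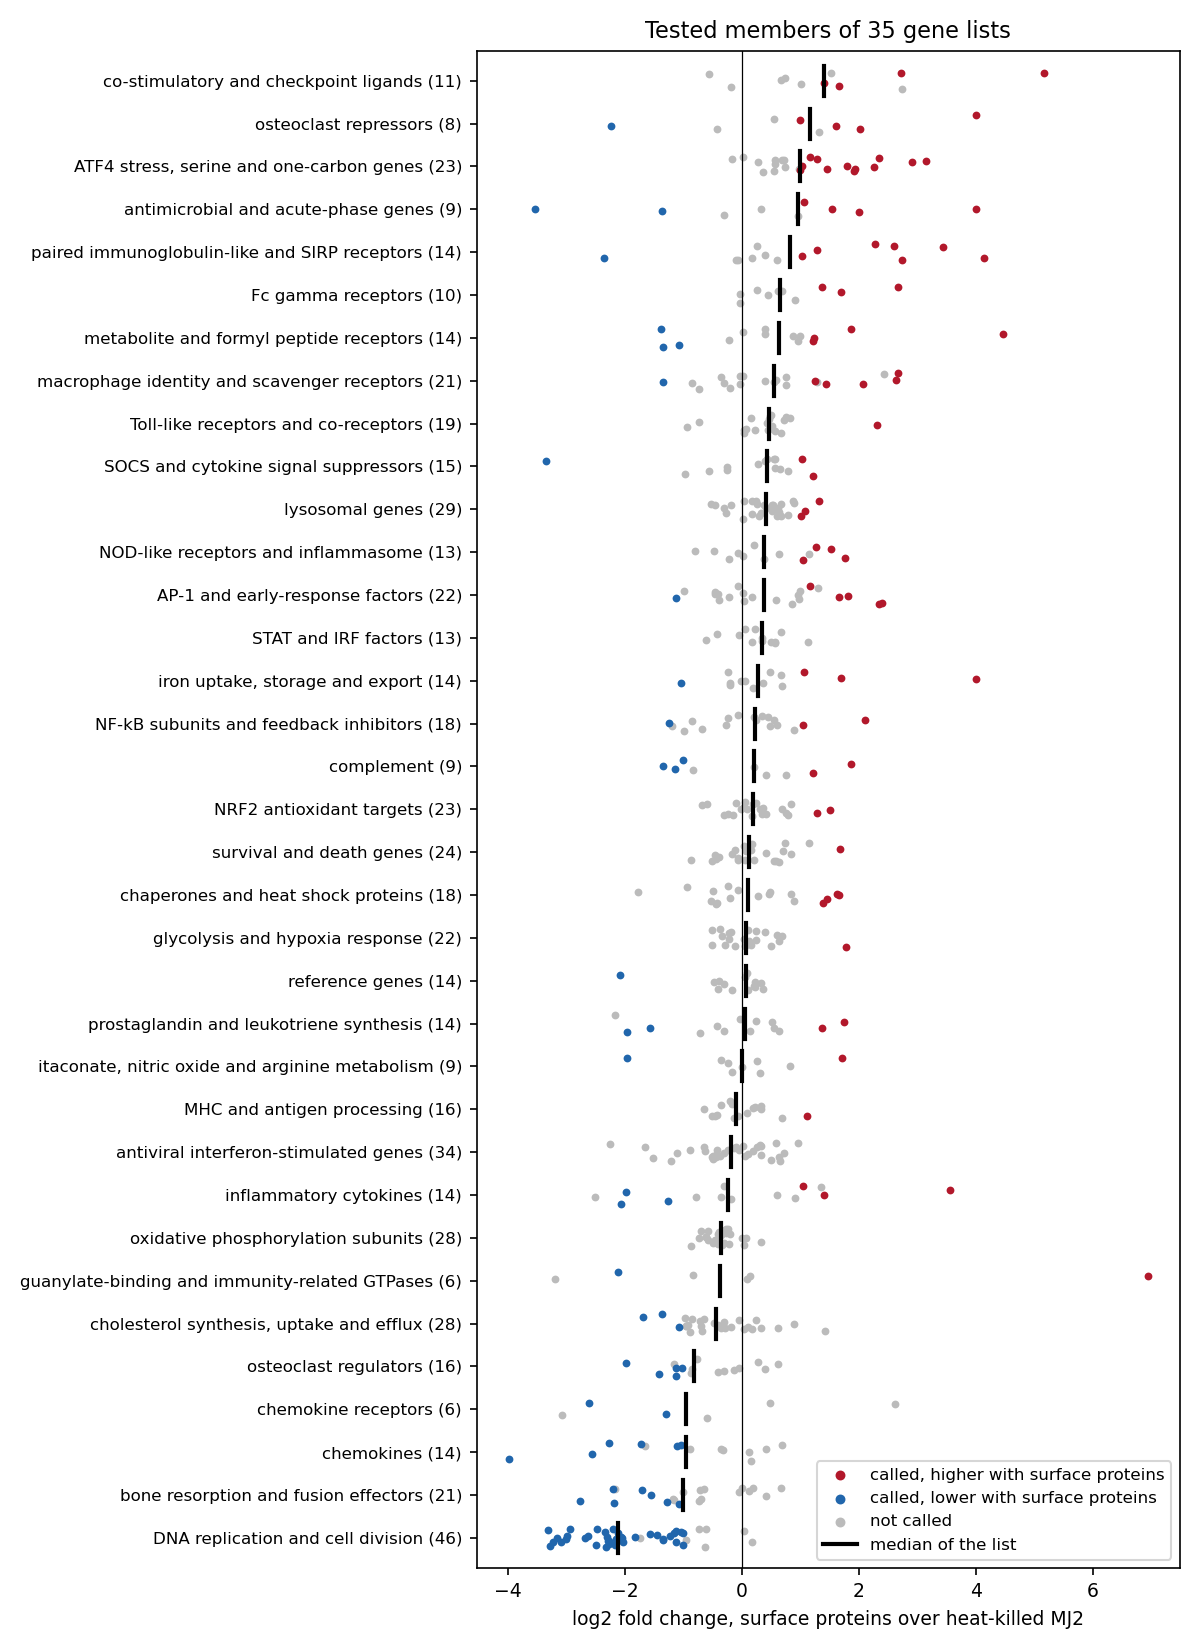
Log2 fold change of surface proteins over heat-killed MJ2 for the tested members of 35 gene lists (points, the number tested in parentheses), ordered by the list's median (black bar). Red and blue points are called higher and lower, grey points not called, and cell division genes have the lowest median (-2.11) and co-stimulatory ligands the highest (1.41).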

How the data were processed

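RNA of RAW 264.7 cells was sequenced from the 3′ end of mRNA (QuantSeq, Lexogen). The authors aligned the reads to mouse (the submitters' processing notes name Bowtie2, bedtools and mm10, without versions) and, by the study's methods, applied quantile normalization, and they deposited 1 log2 value per gene row and library. The totals differ between libraries (5930926 to 6503682 in the 6 compared), so the deposited values are not identically distributed, as full quantile normalization would leave them. That scale was read here as log2(adjusted reads + 1), with depth per library as the sum of adjusted reads, and raw counts were not used here.

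The 3 surface protein libraries were compared with the 3 heat-killed MJ2 libraries on the log2 values by linear models with empirical Bayes moderation (limma 3.58.1 in R 4.3.3), over rows with 10 or more adjusted reads in 3 or more of the 6 libraries. Every adjusted p in the text is from limma with Benjamini-Hochberg adjustment over all 10916 rows. The thresholds for a call were 0.05 on the adjusted p and 2 on the fold. Folds against a group without reads are lower bounds against a floor of 3 reads. Intervals for counting error are not given, since the values are normalized.

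The gene comparison, the gene lists and the sequence elements were chosen with earlier results of these data known, so they are descriptions and not independent support. Named are the 12 largest and the 12 smallest log2 fold changes among called genes without overlap whose mean level was above the median of the tested genes, up to 4 members of each list by absolute log2 fold change, textbook markers of the lists, and Lcn2 and the osteoclast genes of the study. Some genes that this rule names or could name are counted in their lists but not reported here. Further list members, Mmp12 and the genes of the 4 clusters were chosen after their values had been seen. Replicates in a group differed by 7.39 to 21.48 chi-square units per degree of freedom over rows with 100 or more adjusted reads, so none was a duplicate. The fit was run on made-up data, where 174 of 200 changed genes and 9 of 10716 unchanged genes were called. How many genes it misses or wrongly calls in the deposited values was not tested. Alternatives were other normalizations, filters, constants and fits, a replicate block and leaving out each library, and the counts were also taken at other thresholds. Promoter sequences and gene positions are from RefSeq (GRCm38.p6, the assembly of mm10), matched by symbol or gene ID for 8774 of the 10916 tested genes. Figures were drawn with matplotlib 3.10.9.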

Additional observations from a re-analysis of the deposited data

How the results depend on the processing

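The count of 1098 genes (555 higher, 543 lower) came to 1949 (1005 higher, 944 lower) at an adjusted p under 0.05 without a limit on the fold, and to 289 (122 higher, 167 lower) at a fold of at least 4. Leaving out 1 library moved it between 342 and 1167, with 191 to 662 higher and 151 to 581 lower. The lowest counts came without heat-killed MJ2 replicate 1 (342), heat-killed MJ2 replicate 3 (424), surface proteins replicate 2 (612) and surface proteins replicate 3 (644); the cause was not tested. Without a filter on low values 732 genes were called among 15503 rows. The other normalizations, the stricter filter, the constants and the other fits gave 975 to 1227 genes, and the median log2 fold change of all genes lay between -0.03 (equal totals) and 0.04 under the alternatives. By direction the counts were 472 higher and 608 lower with equal totals, and 518 higher and 594 lower in the fit over all 9 libraries. With the replicate number as a replicate block the count was 980. Deviations of each library from its group's mean were correlated between the groups. Libraries with the same number deviated together only weakly (r = 0.089, 0.127 and 0.059), so the numbers were not taken as pairs. By this r of deviations, every library was nevertheless highest with the library of its own number. Whether the numbers mark pairs is therefore not established. Within the lists, 2 antiviral genes were called lower with the stricter filter, with a constant of 5 and with the robust fit, 1 was called lower with the replicate block, and 1 was called higher without heat-killed MJ2 replicate 2. The fit without a filter on low values left 3 osteoclast regulators, 4 resorption and fusion effectors and 1 complement gene called lower, and 0 inflammatory cytokines, 1 Fc gamma receptor, 2 co-stimulatory ligands, 3 macrophage identity genes and 1 early-response factor called higher. The replicate block left 1 Fc gamma receptor and 4 paired receptors called higher. With the stricter filter 2 co-stimulatory ligands and 3 paired receptors were called higher, and the robust fit with a trend called 7 co-stimulatory ligands higher. With a constant of 0.1, 4 paired receptors were called higher. A constant of 5, the fit over all 9 libraries and the robust fit each left 1 complement gene called lower.

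Of 151 called genes chosen to be followed across the alternatives, 46 were called under every alternative fit, and none reversed. The sign turned for some genes that were not called. Nlrp3 was -0.0090 under quantile normalization, -0.0404 with equal totals, -0.0002 with equal medians and -0.1448 to 0.3247 when a library was left out. Myd88 was -0.0021, -0.0266 and, without a library, -0.0857 to 0.1028. With equal totals Cdkn1b was -0.0152 and Gapdh -0.0040, and without a library they ran from -0.0552 to 0.1008 and from -0.0790 to 0.175. Without a library the log2 fold change of Ccl4 ran from -0.0407 to 0.2683, of Isg15 from -0.6282 to 0.0693, of Mx1 from -2.0005 to 0.0190, of Clec4a2 from -0.2295 to 0.0065 and of Clec4e from -0.0112 to 0.4288. Depth limits the comparison to the rows over the minimum, and 12366 rows were not tested.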
